A study of Drosophila melanogaster with 24 samples.

Results

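The piRNA pathway genes are 32 genes whose products make PIWI-interacting RNAs (piRNAs) or act with them. They were chosen by symbol from a list of known factors and not by a measured value, although earlier results of these data were known. Of these, 31 had a row in all 4 deposited tables, out of 13395 genes listed on at least 1 day. The remaining gene, *armi*, which encodes a helicase of piRNA production, was not listed on any day, also when older symbols were matched.

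piRNAs are short RNAs that guide PIWI proteins to the transcripts of transposons and other repeats in germ cells. In the cytoplasm, the PIWI proteins Aub and AGO3 cut target transcripts in turn within nuage, a perinuclear body, and so amplify piRNAs in the ping-pong cycle. At the mitochondrial surface, longer precursors are cleaved into piRNAs in a row. In the nucleus, Piwi silences transcription of its targets, and a separate set of factors transcribes and exports the piRNA precursors. In the fly testis, the pathway is best known for silencing the repeated *Stellate* genes, without which male fertility is impaired.

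RNA was sequenced from *Drosophila melanogaster* testis cells of males aged 0, 1, 3 or 5 days post-eclosion, with 3 libraries of Ctrl KD and 3 of *Set1* KD testes on each day. All males carried the *nos-Gal4* driver, which is active in early germ cells, combined with an RNAi transgene against *mCherry* (Ctrl KD, labelled WT) or against *Set1* (*Set1* KD), which encodes a histone methyltransferase. Crosses were kept at 18°C and adult males aged at 25°C, and about 15 pairs of testes were pooled, dissociated and filtered for a library. Although the labels name germ cells as the cell type, no sorting step is described, and the driver reaches only a part of the cells sampled.

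For each gene and day, the level used here is the authors' mean normalized count. It pools the 6 libraries of both genotypes and is given without its error. Levels of the Ctrl KD and *Set1* KD testes were not separated, so none of the values below measures an effect of *Set1* KD. Each table was normalized separately, and the median over 12254 genes listed on all 4 days was 261, 337, 382 and 317 on days 0, 1, 3 and 5. On the log2 scale, the median stood above its day 0 value by 0.37, 0.55 and 0.28 on days 1, 3 and 5. For this reason, levels relative to day 0 are given after division by this median (centred), unless called deposited. The mean normalized counts and levels per length listed by day are not centred. Genes are compared with each other only per length, as the mean normalized count per kb of exon, given in parts per 1000000 of the sum over the table (ppm).

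The targeted gene *Set1* had a mean normalized count of 213, 261, 399 and 349.6 on days 0, 1, 3 and 5, which cannot check the labels because the genotypes are pooled. Spermatid markers were among the most abundant transcripts per length, with a median of 3481 ppm at day 0 over the 3 listed under the symbols used. All 5 spermatid markers named were listed when synonyms were matched, but values are given for these 3 only. The 9 spermatocyte markers had a median of 35.1 at day 0. Markers of early germ cells (median 2.85 ppm over the 3 with an exon length), cyst lineage (2.55 over 3) and hub (5.63 over 3) were listed on each day. Transcripts typical of other cells were present too, with sheath muscle markers at a median of 527 ppm and hemocyte markers at 0.637 at day 0.

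Among the piRNA pathway genes, the level per length spanned a 69.8-fold range at day 0, from 1.22 ppm for *BoYb* to 85.3 for *squ*. The order was similar from day to day: 5 genes held the same place on all 4 days, and no gene moved by more than 6 places among the 31. On each day, *squ*, *Hen1*, *papi*, *AGO3* and *mino* were the 5 most abundant per length. The median of the 31 genes was 5.29, 5.31, 8.21 and 8.09 ppm on days 0, 1, 3 and 5. The median of all listed genes on these days was 9.96, 9.26, 10.5 and 11.3. Per length, 10 of the piRNA pathway genes lay above the median gene on all 4 days and 19 lay below it on all 4 days, with *aub* and *arx* on either side depending on the day.

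**Figure D1:**
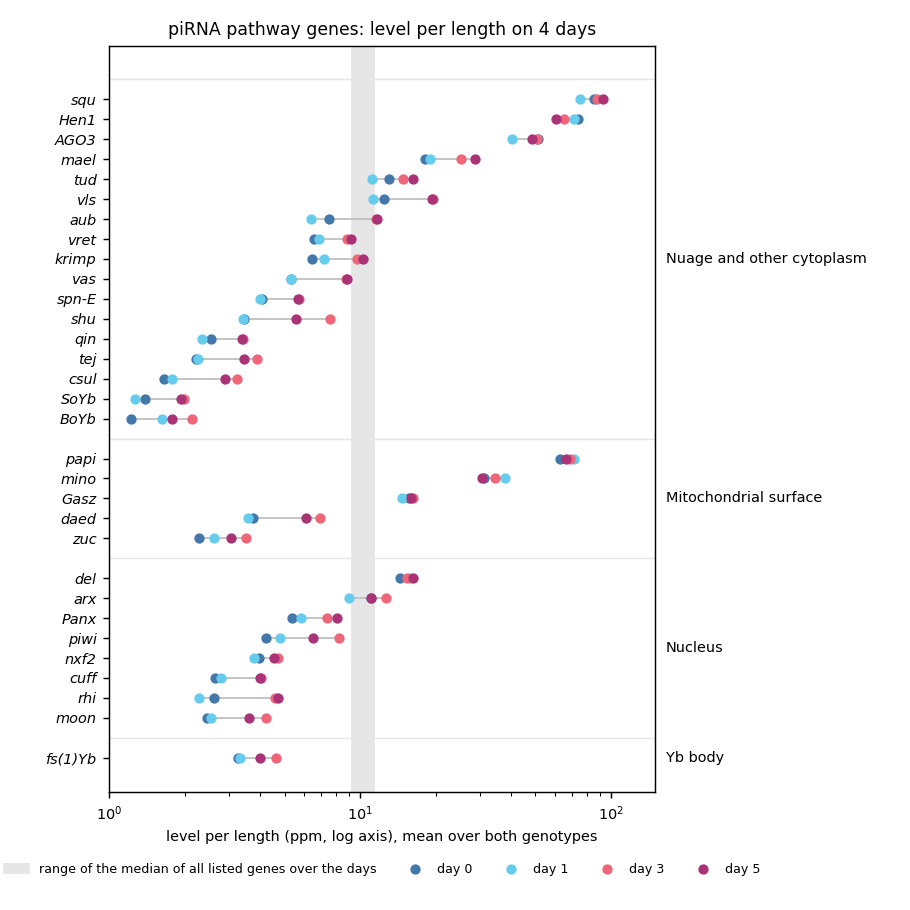
Level per length (ppm, log axis) of the 31 listed piRNA pathway genes on each of 4 days, grouped by where the protein acts. Each point is the authors' mean over the 6 libraries of a day, given without its error. The grey band spans the daily medians of all listed genes (9.26 to 11.3). Most points lie left of the band, and *squ*, *Hen1*, *papi* and *AGO3* lie far to its right.

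The genes of the PIWI proteins themselves differed widely in level. *AGO3*, which carries mostly sense piRNAs in the ovary, had a mean normalized count of 1908, 2001, 2489 and 1951 on days 0, 1, 3 and 5. For *aub*, its ping-pong partner, the values were 266, 299, 539.9 and 449 on the same days. *piwi*, the nuclear member, had 152, 230.4, 389.7 and 255 on days 0, 1, 3 and 5. On every day *AGO3* stood above both other genes per length. It was 6.79 times as abundant as *aub* at day 0 and 4.12 times at day 5, and 12.1 and 7.40 times as abundant as *piwi*. The ratio of *aub* to *piwi* per length lay between 1.32 at day 1 and 1.80 at day 5.

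*AGO3* is also the longest gene of the set in the genome. It spans 135 kb of chromosome 3L, from 23554593 to 23689640 on dm6, with 3.18 kb of exon, and its exons overlap no other annotated gene. *piwi* (2L, 10982205 to 10987420) and *aub* (2L, 10997819 to 11001476) are neighbours on the same strand, 10.4 kb apart. Both overlap an exon of another gene on the opposite strand, *SCAR* for *piwi* and *TTLL4A* for *aub*. Whether the authors' counting used strand is not given in the sources used here, so reads of these neighbours may be included. Of the 32 genes, 14 had such an overlap on the opposite strand and 4 on the same strand. Those 4 were *vas*, whose exons are shared with *solo*, *squ*, which overlaps *grp*, *SoYb*, which overlaps *CG31875*, and *armi*, which overlaps *CG46463*. How the authors assigned reads in shared exons is not known here, so the levels of the listed genes among these may be too high or too low. Whether the overlap bears on the missing rows of *armi* was not tested.

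Nuage and other cytoplasmic factors were set beside the nuclear factors. The 17 listed cytoplasmic genes had a median of 6.44, 6.35, 8.84 and 9.22 ppm per length on days 0, 1, 3 and 5. For the 8 nuclear genes the medians were 4.09, 4.29, 6.03 and 5.61. On the log2 scale, the cytoplasmic median was therefore higher by 0.66, 0.57, 0.55 and 0.72. The ranges of the groups overlapped on every day, and 2 nuclear genes, *del* and *arx*, lay above the cytoplasmic median throughout. The difference carries no test, because genes are not replicates of a location. Its size depended on the choices made, from 0.26 at day 3 with *mael* counted as nuclear to 1.13 at day 5 without division by length.

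The cytoplasmic group held both the most and the least abundant genes of the set. *squ*, which encodes a nuage protein, had a mean normalized count of 1373, 1618, 1858 and 1622 on days 0, 1, 3 and 5. *Hen1*, which methylates the ends of finished piRNAs and of siRNAs, had 1358, 1748, 1575 and 1203. *tud*, the founding member of the Tudor family that binds methylated arginines of PIWI proteins, had 1353, 1540.0, 2026 and 1820.4. These 3 genes have nearly equal counts at day 0, yet per length they lay at 85.3, 73.6 and 13.1 ppm, since *tud* has 8.83 kb of exon. *mael*, a protein found in nuage and in the nucleus, had a mean normalized count of 459 at day 0 and 839 at day 3.

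The helicases and Tudor scaffolds of nuage were less abundant per length, with *vas* at 5.29 ppm, *spn-E* at 4.07 and *krimp* at 6.44 at day 0. *vas*, the DEAD-box helicase on which nuage is built, had a mean normalized count of 142, 189.6, 311 and 258 on days 0, 1, 3 and 5. The values of *spn-E*, a further helicase with a Tudor domain, were 223, 292, 413 and 338. *krimp*, a scaffold that brings Aub and AGO3 together, had 193, 286, 382 and 333. After centring, all 3 genes were higher at day 3 than at day 0, at 1.50, 1.26 and 1.36 times the day 0 level. *qin*, which keeps the ping-pong cycle between unlike partners, and *vret*, a Tudor protein of piRNA production, ranged from 182 to 320.5 and from 179 to 318. *tej*, which recruits Vas and Spn-E to nuage, ranged from 50.5 to 116.

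At the lower end, *BoYb* and *SoYb*, sister genes of *fs(1)Yb*, lay at 1.22 and 1.39 ppm per length at day 0 and at 2.14 and 1.99 at day 3. *fs(1)Yb*, which organises the Yb bodies of somatic cells in the ovary, was higher than both, at 3.25 at day 0 and 4.63 at day 3. Thus the gene best known from somatic cells was listed on all 4 days in the testis. Its mean normalized count was 134, 182, 250.2 and 177 on days 0, 1, 3 and 5.

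The arginine methyltransferase that modifies PIWI proteins is encoded by *csul*, and its cofactor by *vls*. Their levels were unlike: *csul* lay at 1.65 ppm per length at day 0 and 3.23 at day 3, whereas *vls* lay at 12.5 and 19.5. By mean normalized count, *csul* had 38.9, 56.0, 100.3 and 74.2 on days 0, 1, 3 and 5. *vls*, whose exons overlap *lok* on the opposite strand, had 192, 229.6, 394 and 322. *shu*, a co-chaperone needed to load PIWI proteins, had 68.2, 90.4, 198 and 119.5, the widest spread over days of the set.

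The factors at the mitochondrial surface split into abundant and scarce genes per length, with *papi*, *mino* and *Gasz* at 62.5, 31.1 and 15.7 ppm at day 0 and *daed* and *zuc* at 3.74 and 2.28. *papi*, a Tudor protein that holds precursors there for trimming, had a mean normalized count of 1975, 2989, 2858 and 2254 on days 0, 1, 3 and 5. *mino*, an acyltransferase needed for piRNA production, had 1432, 2315, 2090.1 and 1529. *Gasz*, a scaffold of the outer membrane, had 352, 438, 480.2 and 386. *zuc*, the endonuclease that cuts the precursors, had 30.7, 47.0, 62.3 and 44.6. *daed*, which acts with Gasz to recruit Armi, had 56.4, 71.5, 137 and 99.3. *daed* and *papi* lie 4.44 kb apart on 2L, on opposite strands, and *papi* was 16.7 times as abundant per length at day 0.

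Of the nuclear genes, those that define piRNA source loci were low per length with 1 exception. Rhino, encoded by *rhi*, is a relative of heterochromatin proteins that marks these loci, and *rhi* had a mean normalized count of 48.3, 56.2, 111 and 93.8 on days 0, 1, 3 and 5. *cuff*, which keeps their transcription from ending early, had 40.0, 56.6, 80.4 and 65.9. *moon*, which starts transcription there, had 23.3, 32.3, 52.9 and 37.2. The exception was *del*, which links Rhino to these partners, with 557, 812, 783 and 681. At day 0, *del* lay at 14.4 ppm per length, against 2.62 for *rhi*, 2.63 for *cuff* and 2.45 for *moon*. The overlap of *del* with *pths* on the opposite strand applies to this value.

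The genes of Piwi-guided silencing lay between *rhi* and *del* per length at day 0. *Panx*, which connects Piwi to the silencing machinery, had a mean normalized count of 125, 181, 226 and 204 on days 0, 1, 3 and 5. Its partner *nxf2*, a relative of RNA export factors, had 136, 172, 212 and 169. *arx*, a small zinc-finger protein that binds Piwi, had 115, 125, 175 and 125. Their levels per length on that day were 5.37 ppm for *Panx*, 3.96 for *nxf2* and 11.0 for *arx*, whose exons add up to 0.892 kb.

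Across days, the deposited mean normalized count of the 31 genes was higher at day 3 than at day 0 for every one of them, but so it was for 89.4% of all genes. After centring, 24 of 31 (77.4%) were higher at day 3 than at day 0, against 45.4% of all 12470 genes listed on both days. The median piRNA pathway gene was at 1.28 times its day 0 level at day 3 and 1.26 times at day 5, whereas the median of all genes was 0.975 and 0.945. At day 5, 24 of 31 were again above day 0, against 40.8% of all genes. At day 1 the piRNA pathway genes were close to all genes, with 18 of 31 above day 0 (58.1%, against 57.2%) and a median of 1.04. A median piRNA pathway gene had a ratio of day 3 to day 0 above that of 87.2% of all genes. No library values enter these ratios, so whether they exceed the spread between replicates, and in which genotype they arose, was not tested.

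**Figure D2:**
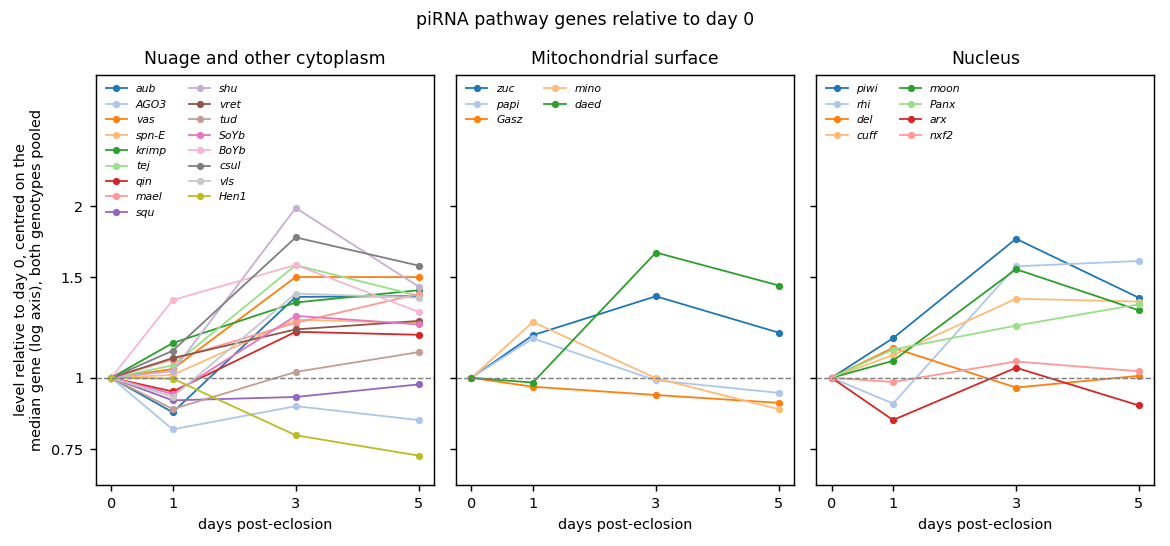
Level of each piRNA pathway gene relative to its own day 0 level, centred on the median gene (log axis, both genotypes pooled), against days post-eclosion, for cytoplasmic, mitochondrial and nuclear factors. The dashed line marks the day 0 level. At day 3, *shu* (1.98), *csul* (1.76), *piwi* (1.75) and *daed* (1.66) are highest and *Hen1* (0.793) is lowest.

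The centred change was unlike among members. At day 3, *shu* stood at 1.98 times its day 0 level, *csul* at 1.76, *piwi* at 1.75, *daed* at 1.66, and *tej* and *BoYb* both at 1.58. *Hen1* was at 0.793, *AGO3* at 0.892, *squ* at 0.925 and *Gasz* at 0.933. Of the PIWI genes, *piwi* and *aub* (1.39) were therefore above their day 0 level at day 3 and *AGO3* below it. By day 5, *rhi* (1.60), *csul* (1.57) and *vas* (1.50) were the highest and *Hen1* (0.730) the lowest.

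Grouped by location, the median centred level at day 3 relative to day 0 was 1.28 for the 17 cytoplasmic genes and 1.31 for the 8 nuclear genes, with 14 and 7 of them above day 0. Cytoplasmic and nuclear factors thus had nearly the same median. Of the 5 mitochondrial genes 2 were above day 0, *zuc* at 1.39 and *daed* at 1.66, and the median was 0.998. Among all genes, 45.4% were above day 0 at day 3 and the median was 0.975, so the mitochondrial genes were close to all genes.

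A split by abundance gave medians further apart than those of the locations. It was made after these values had been seen and from the same daily levels, so the grouping and the ratios share values. The 20 genes whose mean level per length over the days was below that of the median gene were all above their day 0 level at day 3, with a median of 1.39 and a range of 1.07 to 1.98. Among all genes below the median level, 49.1% were above day 0 at day 3. The 11 more abundant piRNA pathway genes had a median of 0.990, and 4 of them were above day 0 (36.4%, against 43.3% of all abundant genes). Those 4 were *mael*, *tud*, *vls* and *arx*.

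Marker genes of several cell types also differed in level between these days. Of all genes, 45.4% were above their centred day 0 level at day 3 and 40.8% at day 5. Relative to day 0 and centred, the median of the 4 early germ cell markers was 1.43 at day 3 and 1.34 at day 5, with 4 and 3 of the 4 above day 0. The 9 spermatocyte markers had medians of 1.10 and 1.17, with 6 of the 9 above day 0 on each of these days. The 3 cyst lineage markers had medians of 1.20 and 1.39, with 3 and 2 of the 3 above day 0. Their levels were unlike. *tj*, with a mean normalized count of only 28.9 at day 0, stood at 3.30 at day 3 and 2.20 at day 5. *eya*, the most abundant of the 3, stayed near its day 0 level, at 1.007 and 0.995. The 3 spermatid markers had medians of 0.811 and 0.805, and none was above day 0. The 3 hub markers had medians of 1.07 and 0.910. Larger differences were seen for the markers of hemocytes and sheath muscle. The 3 hemocyte markers had a median of 4.73 at day 3 and 8.40 at day 5, and the 2 sheath muscle markers 0.403 and 0.287. The part of these markers in the levels of the piRNA pathway genes was not tested, and in pooled RNA more cells of a type and more RNA per cell cannot be told apart.

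**Figure D3:**
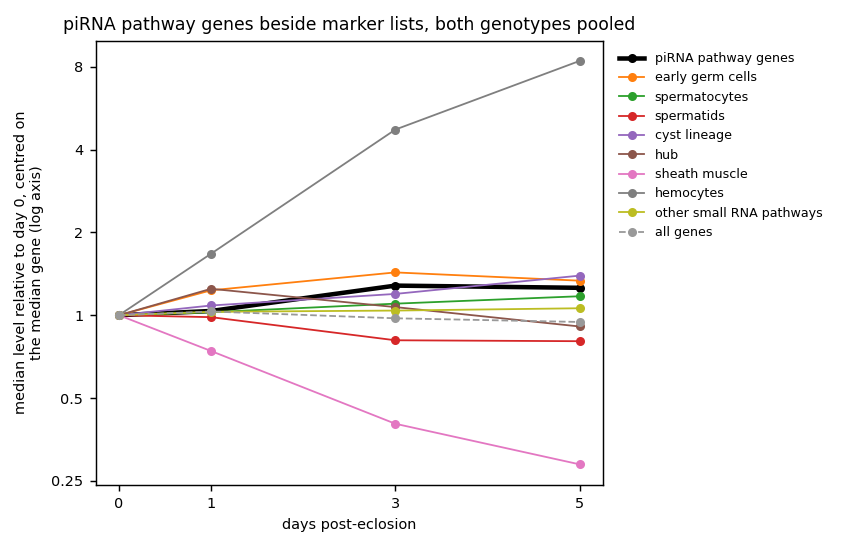
Median level relative to day 0, centred on the median gene (log axis, both genotypes pooled), of the 31 piRNA pathway genes (thick line), of marker lists, of other small RNA genes and of all genes. At day 3 the piRNA pathway genes (1.28) lie below early germ cell markers (1.43) and above cyst lineage (1.20) and spermatocyte markers (1.10). At day 5 they (1.26) lie below both cyst lineage (1.39) and early germ cell markers (1.34) and above spermatocyte markers (1.17). Hemocyte markers lie far above and sheath muscle markers far below.

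Genes of related pathways were described in the same way. Of all genes, 45.4% were above day 0 at day 3. The 8 genes of the siRNA and miRNA pathways, such as *AGO2* and *Dcr-2*, had a median of 1.04 at day 3 relative to day 0, with 5 of 8 above day 0. The 10 chromatin and export partners of nuclear silencing had a median of 1.19, with 7 of 10 above day 0, among them *egg* and *wde*. Below day 0 were *sov* (0.831), *ctp* (0.929) and *Su(var)2-10* (0.948). Of 13 further piRNA factors outside the set, 9 were listed under the symbols used, with a median of 1.17 and 8 of 9 above day 0. With synonyms matched, 11 of the 13 were listed, and those found only by synonym are not in this median or count. Levels of the siRNA and miRNA genes per length were similar to those of the piRNA pathway genes at day 0, with a median of 7.12 against 5.29 ppm. No gene of the *Stellate* or *Suppressor of Stellate* repeats, a target and a source of piRNAs in the testis, was listed under the symbols searched, so 0 rows gave a value.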

How the data were processed

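According to the methods and the submitters' processing notes, the authors mapped reads with Bowtie 2 version 2.5.1 to dm6, counted them on RefSeq genes with featureCounts and applied DESeq2 day by day to 6 libraries at a time. The deposited signal used here is the mean normalized count of a gene over these libraries, which the authors made with its size factors. The other 5 value columns of each table hold the authors' own comparison of *Set1* KD with Ctrl KD (fold change, standard error, statistic and p-values) and were not used. No values per library were used, so depth per library is unknown, and no error or test is given. The table totals were 16183500 to 22304900 mean normalized counts.

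Exon lengths and positions came from Ensembl release 115 (BDGP6) and RefSeq, and 13370 of 13395 genes had a length. Percentiles, ratios and medians were computed with pandas 2.3.3 in Python 3.11.15. Only the scaling per length, the percentiles and the exon lengths were tested on simulated data. The members and lists were chosen with earlier results of these data known. Every member is named, and other genes are given as lists. Locations of proteins are general knowledge. Alternatives were another length, other backgrounds, a count minimum of 50, a pseudocount of 1 and other scalings. Sequences of the genes were not used here.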

Additional observations from a re-analysis of the deposited data

How the results depend on the processing

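Of 57 values recomputed under an alternative, 53 stayed within 1.5 times the value reported and 4 did not, where a log2 difference was judged by the ratio it stands for. These 4 concern counts across days: 27 genes were highest at day 3 by the deposited mean, 17 after centring on the median gene and 12 as shares of the table total. By the deposited mean, the median gene was itself highest at day 3, at 382 against 261, 337 and 317 on days 0, 1 and 5. The share of all genes highest at day 3 was not computed. The count higher at day 1 than at day 0 was 31 as deposited, 18 after centring and 13 as shares of the total. Of all genes, 92.8% were higher at day 1 as deposited and 57.2% after centring. The limit of 1.5 times was about as large as the ratio of the cytoplasmic to the nuclear median. A large fall in that ratio could therefore pass as unchanged. The log2 differences themselves moved by more: 0.66 became 0.27 at day 0 with a count minimum of 50, 0.57 became 0.28 at day 1 with *mael* as nuclear, and 0.55 became 0.98 at day 3 without division by length. The cytoplasmic median stayed above the nuclear median under every alternative run, with the smallest log2 difference of 0.26 at day 3 when *mael* was counted as nuclear and the largest of 1.13 at day 5 without division by length. The alternatives without mitochondrial genes, without *csul*, *vls* and *Hen1*, and with synonyms for the other lists were chosen after seeing the data. No paired analysis was possible because the deposited mean pools the libraries, and for the same reason no replicate could be left out. Pooling both genotypes limits every value to the average of Ctrl KD and *Set1* KD testes.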
